A study of Saccharomyces cerevisiae with 95 samples.

Results

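Of 2385 summits of the meiotic axis protein Red1, 582 were mid-strength and closely packed. They had a score from 50 to under 1000 and another summit of any score under 1000 bp away on the same chromosome. Together with the neighbours that brought them into this set they formed 350 chains, that is, runs of summits with steps under 1000 bp. The 884 mid-strength summits with no other summit within 1000 bp, called lone summits below, served as the comparison. The members were chosen by score and distance, and both come from 1 list. The values below are therefore a description, and no test was made.

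Red1 is a structural protein of the chromosome axis, the protein core to which chromatin loops are anchored in meiotic prophase. It works with the HORMA-domain protein Hop1 and with cohesin that contains the meiotic kleisin Rec8. These proteins help to direct DNA break formation and steer repair toward the homologous chromosome. Axis proteins of budding yeast are known to gather at discrete sites, often between the 3′ ends of converging genes. In this assay enriched sites are listed by their summits, a summit being the base of highest signal within a peak. Whether summits of the same chain are separate axis sites was not tested.

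The list came from chromatin immunoprecipitation with sequencing (ChIP-seq) of SK1, a strain that enters meiosis fast and in near synchrony. The cultures were fixed in 1% formaldehyde for 30 min, 3 h into meiosis. The authors combined 4 anti-Red1 libraries titled wild type and 4 inputs before they called summits. Of the anti-Red1 libraries, 3 carry the genotype label H119 and replicate 2 carries H6408, the label of the SMC4-PK9 strain, whose condensin subunit Smc4 bears an epitope tag. One of the inputs is filed under SMC4-PK9 without a second sonication, and the other 3 are wild type inputs labelled H119. Because the libraries were pooled, the list gives 1 value per summit and no spread between replicates. The other 87 of the 95 samples of the series were not analysed here. The depth behind the pooled list is unknown, and the score, the peak caller's −log10 of a p or q value, grows with depth.

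A close neighbour was found at 39.7% of the 1466 mid-strength summits, against 35.6% of all 2385 summits. The share was lower in each higher score class inside the mid-strength range. It was 47.2% (191 of 405) for scores from 50 to under 100 and 42.0% (156 of 371) from 100 to under 200. From 200 to under 500 it was 37.1% (145 of 391), and from 500 to under 1000 it was 30.1% (90 of 299). The 95% Wilson intervals of the first and the last of these classes were 42.3 to 52.0% and 25.2 to 35.5%. Such intervals cover counting error only, and neighbouring summits are not independent of each other. Outside the range, 216 of 497 summits scoring under 50 (43.5%) and 51 of 422 scoring 1000 or more (12.1%) had a close neighbour. Peak widths are not part of the list, so their part in this order was not tested.

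Closely packed summits had a median score of 156 (middle 50% from 82.0 to 331), and lone summits had 206 (middle 50% from 103 to 486). On the log10 scale the medians were 2.19 and 2.31, a difference of -0.12. Chromosome by chromosome, the median was lower for the closely packed summits on 14 of 16, with a mean difference of -0.11 ± 0.11 (SD, 16 chromosomes). The exceptions were chromosomes V, where the medians were 201 against 158, and VI, where they were 188 against 144. The rule cut both sets to the same score range, and both filled it. They could therefore differ only in the balance of low and high scores within that range.

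**Figure D1:**
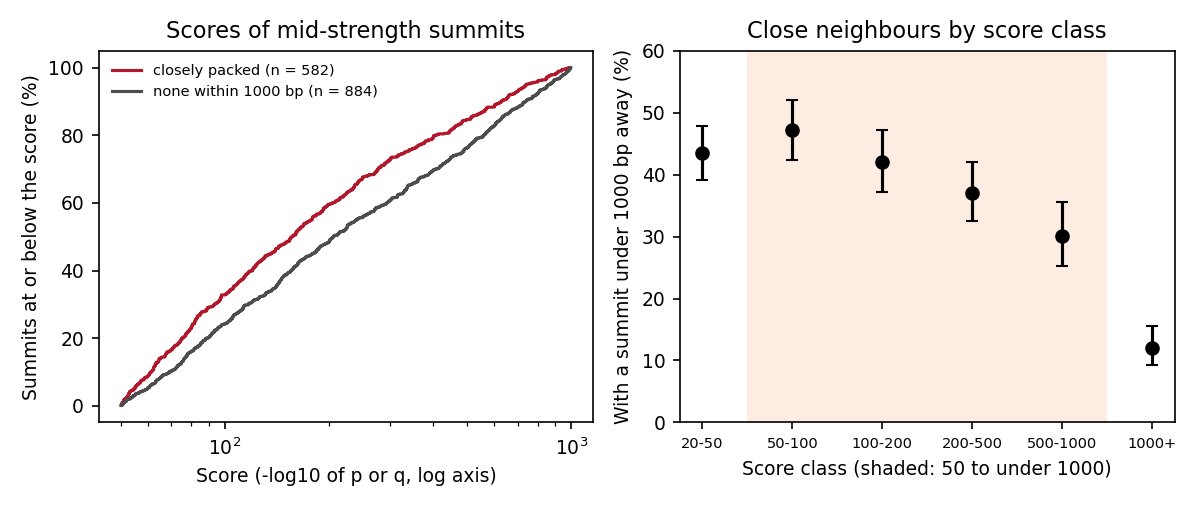
Left, cumulative share of mid-strength summits (%) against score (−log10 of p or q, log axis) for 582 closely packed and 884 lone summits. Right, share of summits with another under 1000 bp away (%) by score class, with 95% Wilson intervals as bars; within the shaded mid-strength range it runs from 47.2% down to 30.1%, and it is 12.1% for scores of 1000 or more.

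The highest closely packed summit scored 988 at position 577401 of chromosome XVI, and its neighbour 603 bp away scored 112. Scores of 968 and 962 followed at position 124601 of chromosome XIV and position 182965 of chromosome XII. Their neighbours lay 778 and 722 bp away and scored 22.9 and 554. The next were 942 at position 252140 of chromosome II, with a neighbour of 78.0 at 512 bp, and 941 at position 337377 of chromosome XI, with a neighbour of 410 at 773 bp. In each of these 5 cases the nearest summit was clearly the lower one, and in 2 of them it was itself above 400.

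The bounds of the set cut through continuous ranges. Just above the lower score bound lay summits of 50.2, 50.3 and 50.4, and just below it closely packed summits of 49.8, 49.7 and 49.5. At the upper bound the 3 highest inside were those named first above, and the 3 closest outside scored 1028, 1036 and 1043. The largest distances to a neighbour inside the set were 999, 996 and 995 bp, and the smallest outside were 1006 bp, shared by 2 adjacent summits, and 1009 bp.

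Most chains were pairs. Pairs made up 289 of the 350 chains (82.6%) and held 437 of the 582 closely packed summits (75.1%). Chains of 3 numbered 47 and held 99 of them, chains of 4 numbered 11 and held 35, 2 chains had 5 summits and 1 had 7. The median length of a pair was 592 bp (316 to 996 bp), that of a chain of 3 was 1443 bp (940 to 1892 bp) and that of a chain of 4 was 2159 bp (1219 to 2639 bp). Over all chains the median length was 655 bp.

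The chains mixed strengths. Of the 289 pairs, 148 joined 2 mid-strength summits, 110 joined one to a summit scoring under 50 and 31 joined one to a summit of 1000 or more. In the first kind the median scores of the higher and the lower summit were 316 and 102. In pairs with a weak partner they were 143 and 33.1, and in pairs with a strong partner 1505 and 137. Their median lengths, 573, 604 and 595 bp, were close to one another. Of the 47 chains of 3, 18 were made of mid-strength summits alone. Of the others, 16 included 1 weak summit and no strong one, and 10 included 2 weak ones. The remaining 3 each held 1 weak, 1 mid-strength and 1 strong summit. Seen from the single summit, the nearest neighbour was of mid strength for 403 of 582 (69.2%), weak for 146 (25.1%) and strong for 33 (5.67%). Lone summits, whose nearest neighbour lay beyond 1000 bp, had a strong one in 148 of 884 cases (16.7%), a mid-strength one in 554 (62.7%) and a weak one in 182 (20.6%). These counts stand beside a list of 2385 summits, of which 422 were strong, 1466 of mid strength and 497 weak. Of the 422 strong summits, only 51 (12.1%) had any summit under 1000 bp away.

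**Figure D2:**
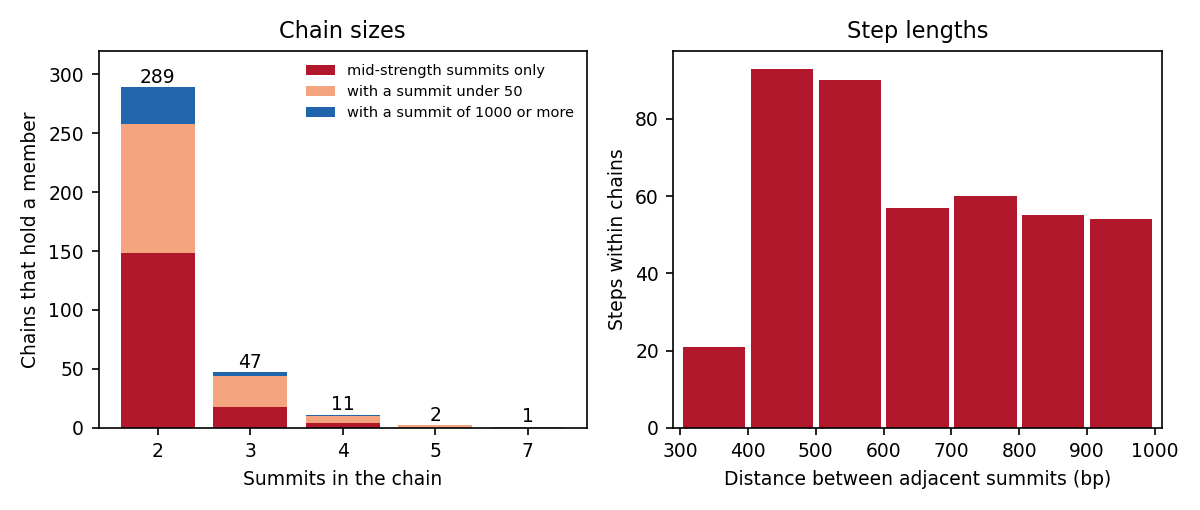
Left, number of chains that hold a closely packed mid-strength summit by the number of summits in the chain, coloured by the scores found in the chain (blue chains may hold weak summits too); 289 of 350 are pairs. Right, number of steps between adjacent summits of these chains in classes of 100 bp, with the fullest classes from 400 to under 600 bp and few steps below 400 bp.

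Steps within chains are under 1000 bp by definition, and the longest was 999 bp. The 430 steps had a median of 623.5 bp (middle 50% from 494 to 803 bp). Steps from 400 to under 500 bp numbered 93 and those from 500 to under 600 bp 90, or 21.6% and 20.9% of all steps. Each 100 bp class from 600 bp upward held 54 to 60 steps. Below 400 bp there were 21 steps, down to 316 bp. Per the labels, library DNA was cut from a gel at 300 to 500 bp, a size near the shortest steps. Whether 2 summits closer than this could have been told apart was not tested.

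The shortest step joined a summit of 21.3 at position 421889 of chromosome XIII to one of 115 at position 422205. Steps of 328 bp followed on chromosome IV, between positions 130842 (score 94.5) and 131170 (score 232), and on chromosome IX, between positions 213980 (score 60.7) and 214308 (score 26.7). None of these summits scored above 250. Steps under 400 bp had a median higher score of 95.8. In the 100 bp classes from 400 to under 800 bp that median lay between 274 and 389, and it was 215 and 173 in the classes from 800 bp upward. The lower summit of a step varied less, with medians from 41.6 to 68.0 over the 7 classes.

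Mid-strength summits next to each other in a chain differed in score about as much as mid-strength neighbours farther apart. Among 224 adjacent mid-strength summits under 1000 bp apart the higher score was a median of 2.34 times the lower (middle 50% from 1.51 to 3.73). The ratio was 2.40 for 174 such neighbours from 1000 to under 2000 bp apart, 2.31 for 221 from 2000 to under 5000 bp and 2.39 for 294 at 5000 bp or more. With weak and strong partners included, the median ratio in the 7 classes of step length ran from 2.42 to 3.75. Among mid-strength neighbours the score of the higher summit was smaller at short range, with a median of 291 under 1000 bp and 450 at 5000 bp or more. The lower summit had medians of 96.9 and 122 in these classes.

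Of the closely packed summits, 54.1% were the highest of their chain. This share follows from the make-up of the chains and is no separate result. A chain without a strong summit always has a closely packed summit on top, and a chain with a strong one never has. In pairs the higher summit lay on the side of lower coordinates in 160 and on the other side in 129. In chains of 3 the highest summit stood in the middle in 19 of 47, first in 13 and last in 15. In chains of 4 it came last in 5 of 11. In chains of 3 and of 4, no single place held the highest summit in most of them.

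The largest chain had 7 summits within 4605 bp of chromosome III, from position 104499 to position 109104. Of these, 5 were of mid strength. Their scores were 145 at position 104499, 76.5 at 105245, 451 at 106122, 278 at 108591 and 169 at 109104. Between the highest of these and the pair at the right end lay 2 summits just under the bound, with 47.5 at position 107111 and 47.0 at 108097. The next summit to the left was 1070 bp away, just beyond the step that would have joined it, and to the right none followed for 15186 bp. The chain thus had 2 groups of higher scores with a weak stretch between them.

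Both chains of 5 were looked up after their values were seen. On chromosome II, from position 357716 to 360206, scores of 516 and 464 at the left end were followed by 58.5, 184 and 37.6, all within 2490 bp. On chromosome XVI, from position 786693 to 789113, 3 of the summits scored under 50, and the remaining ones had 169 and 150. No chain of 5 or more held a summit of 1000 or more.

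**Figure D3:**
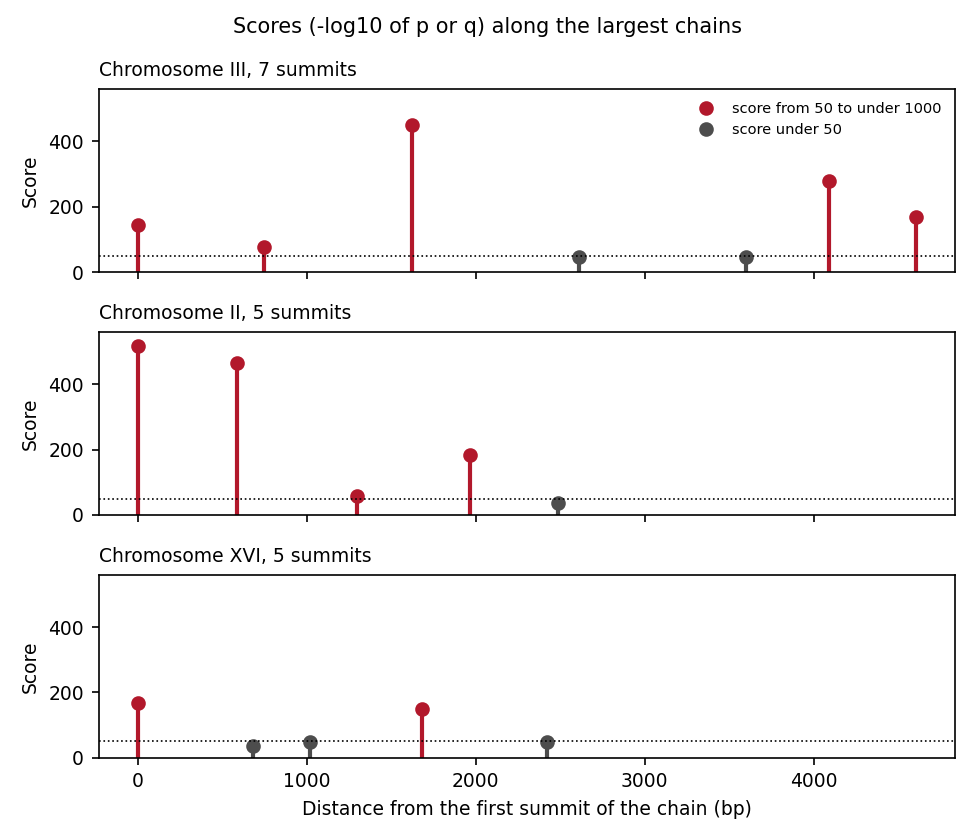
Score (−log10 of p or q) of each summit against its distance from the first summit of the chain (bp), for the chain of 7 and both chains of 5; the dotted line marks the score of 50. In the chain of 7 the scores of 451 and 278 stand on either side of 2 summits under 50.

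Closely packed summits were found on all 16 chromosomes, in unequal number. Their density averaged 5.44 ± 1.36 per 100 kb (SD, 16 chromosomes), where the span of a chromosome runs from its first to its last summit. Lone summits averaged 8.17 ± 2.02 per 100 kb and were the denser set on all chromosomes other than VI and XI. Chromosome VI had the highest density of closely packed summits, 9.56 per 100 kb (26 summits in 14 chains), and chromosome XIII the lowest, 3.78 per 100 kb (34 in 21 chains).

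The closely packed share of mid-strength summits averaged 40.2 ± 7.26% (SD, 16 chromosomes). It was highest on chromosome XI, with 46 of 82 (56.1%, 95% Wilson interval 45.3 to 66.3%), followed by chromosome VI, with 26 of 50 (52.0%, 38.5 to 65.2%). It was lowest on chromosome I, with 10 of 38 (26.3%, 15.0 to 42.0%). Chromosomes XI and I were picked as the extremes of 16, and summits of the same chain are not independent. Their intervals are therefore no test of a difference, and most other intervals overlapped both. Chromosome I had the highest density of lone summits, 14.0 per 100 kb, whereas its density of closely packed ones, 4.99 per 100 kb, lay below the mean.

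The 3 chromosomes with the shortest spans, I, VI and III, had 6.90 ± 2.37 closely packed summits per 100 kb (SD, 3 chromosomes), against 5.10 ± 0.85 on the other 13. Chromosomes I (4.99) and III (6.16) lay within the range of the longer chromosomes, 3.78 to 6.78, and chromosome VI (9.56) lay above it. The difference was 1.80 per 100 kb, and it depended on the setting. Without chromosome VI it was 0.477, with members from a score of 100 it was 0.705, and with neighbours under 750 bp it was 0.743. Without chromosome I it was 2.76, and with neighbours under 1500 bp it was 4.81. The closely packed share averaged 40.2% both on these 3 chromosomes and on the other 13.

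**Figure D4:**
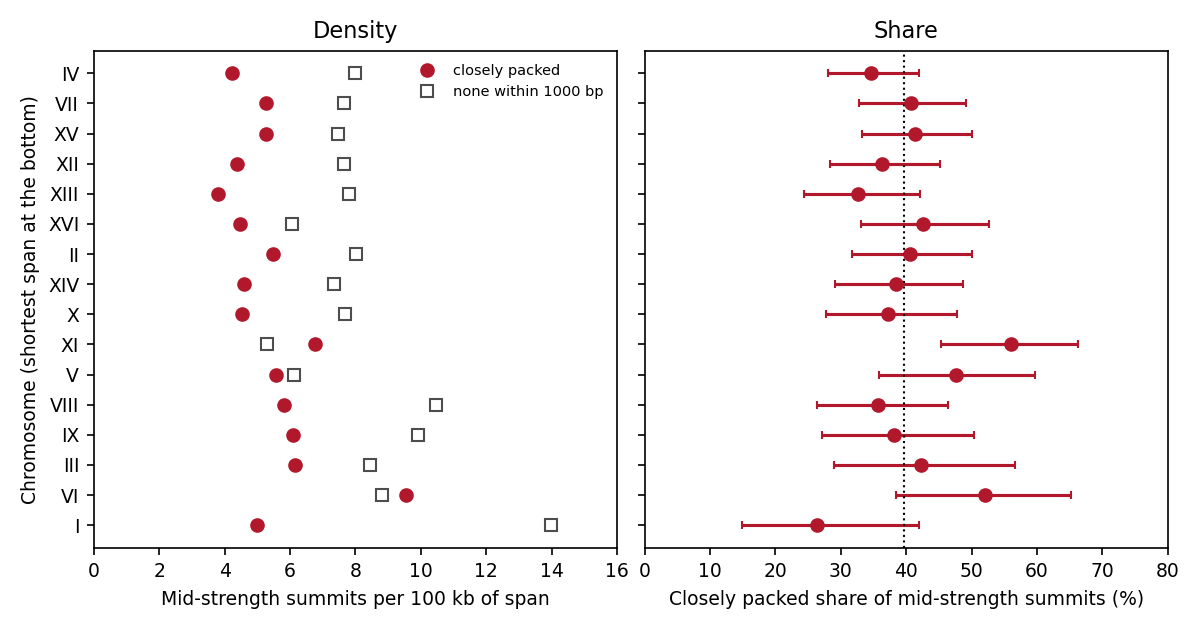
Left, closely packed (filled circles) and lone (open squares) mid-strength summits per 100 kb of span on each of 16 chromosomes, ordered by span. Right, closely packed share (%) with 95% Wilson intervals as bars; the dotted line is the share over all chromosomes, 39.7%, and chromosomes XI (56.1%) and I (26.3%) are the extremes.

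Within 25 kb of the outermost summits, which stand in for chromosome ends, lay 53 closely packed summits (9.11%) and 85 lone ones (9.62%). The difference of -0.51 percentage points was small beside its spread of 7.06 points (SD, 16 chromosomes), and it was negative or 0 on 11 of 16. Its sign depended on the window. Within 50 kb the shares were 17.4% and 17.3%, and within 100 kb they were 33.8% and 30.0%. Densities of closely packed summits were 6.63 per 100 kb in the outer 25 kb, 6.0 both from 25 to 50 kb and from 50 to 100 kb, and 4.67 farther inside. Those of lone summits were 10.6, 8.50, 7.0 and 7.51. The outermost summits lie in the outer 25 kb by definition, so those of mid strength add to the counts and densities there. The zone from 50 to 100 kb had the highest closely packed share, 46.2% (39.5 to 52.9%), against 38.3% (35.4 to 41.4%) beyond 100 kb, and these intervals overlapped.

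Adjacent chains lay a median of 22.0 kb apart (middle 50% from 10.1 to 44.0 kb). In 221 tiles of 50 kb the number of chains ranged from 0 to 7 with a median of 1. In 39 tiles (17.6%) there was no closely packed summit, and in 7 tiles (3.17%) no lone summit. The 50 kb window with the most closely packed summits ran from position 336986 to position 386985 of chromosome II. It held 12 of them in 5 chains, 1 of which is the chain of 5 named above, with scores from 51.0 to 516. Of its 16 summits, 1 was a lone mid-strength summit and none reached 1000.

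The longest stretch without such a chain measured 178 kb on chromosome IV, between positions 578368 and 756431, with 28 summits. Stretches of 170 kb on chromosome XV (307499 to 477183, with 20 summits) and 149 kb on chromosome XIII (422205 to 570994, with 22 summits) came next. They were not empty of Red1, since they held 13, 15 and 14 lone mid-strength summits and 9, 2 and 7 summits of 1000 or more. The most isolated lone summit, at position 373091 of chromosome XV with a score of 492, lay in the stretch on that chromosome. Its nearest neighbour was 19890 bp away. The next were at position 155119 of chromosome V (score 157, 16849 bp) and position 1457214 of chromosome IV (score 162, 14443 bp).

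Beyond the chains, the surroundings of closely packed summits held somewhat fewer summits than those of lone ones. From 1 to 5 kb on both sides, chain partners not counted, the mean was 1.36 summits around a closely packed summit and 1.75 around a lone one. The difference of -0.39 was negative on 15 of 16 chromosomes, with a mean of -0.45 ± 0.33 (SD, 16 chromosomes). Part of it is built in, because the first 1000 bp beyond a chain are empty by definition and reach into this window. Measured from the outer summits of the chain, the mean was 1.52, the difference was -0.23 and it was negative on 14 of 16 chromosomes, with a mean of -0.26 ± 0.31. The gap was widest next to the chain, with 0.189 summits per kb from 1 to 2 kb against 0.251 for lone summits. From 3 to 4 kb the order was the opposite (0.215 against 0.210), and from 7 kb outward the profiles crossed several times. With the window from 2 to 5 kb from the summit the difference was -0.11, with a minimum score of 50 for every summit it was -0.19, and with neighbours under 750 bp it was -0.27. For summits of 1000 or more, measured from the outer summits, the means were 0.229 and 0.256, and the difference was positive on 8 of 16 chromosomes. The 1 to 5 kb count from the summit itself also varied with the summit's own score. With and without a close neighbour, the means were 1.45 and 2.02 for scores from 50 to under 100. They were 1.32 and 1.46 from 500 to under 1000. Outside the mid-strength range they were 1.36 and 1.90 under 50, and 1.35 and 1.28 at 1000 or more.

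**Figure D5:**
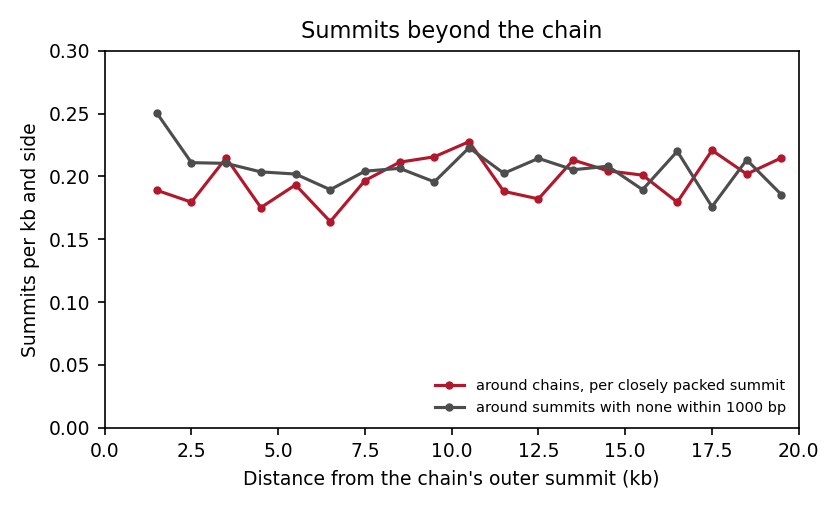
Summits per kb and side against distance (kb) from the outer summit of the chain, averaged over 582 closely packed summits, and from the summit itself for 884 lone ones; a chain enters with each closely packed summit it holds. The lines differ most from 1 to 2 kb (0.189 against 0.251) and cross from 3 to 4 kb and at larger distances.

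Chains followed other chains about as often as they followed lone summits, with overlapping intervals. After a chain the next unit along the chromosome was again a chain in 61 of 345 cases (17.7%, 95% Wilson interval 14.0 to 22.1%). After a lone summit it was a chain in 154 of 877 cases (17.6%, 15.2 to 20.2%). Over all units, which are lone summits of any score and chains with or without a closely packed summit, the share was 18.2%. Chains here are the 350 that hold a closely packed summit.

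Peak numbers in the list run upward with position and reach 2802, so numbers absent from it can be placed between neighbours. The list holds scores of 20.0 or more, and the scores of the absent peaks are unknown. A lone summit is therefore alone only among listed summits. A closely packed summit had an absent number directly beside it in 18.4% of cases and a lone summit in 31.6%. The difference of -13.2 percentage points was negative on 15 of 16 chromosomes. Close steps leave little room for a further peak. Of the 430 steps in chains 7 skipped a number, which is 2.50 absent numbers per 100 kb of step. Gaps beside chains had 3.95 per 100 kb, close to the 3.63 per 100 kb in gaps beside lone summits.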

How the data were processed

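One deposited file was used, a BED list of Red1 summits in SK1. The authors pooled 4 anti-Red1 libraries and 4 inputs before calling, per the labels. MACS2 2.1.1 and Bowtie are named in the submitters' processing notes. The caller's options, the Bowtie version and the treatment of repeats are not given in the sources used here. Column 5 of the deposited list is the authors' −log10 of p or q, and which of them is not stated. The list holds scores from 20.0. Positions are 1-based in the assembly tagged SK1Yue in the peak names, and summits were not assigned to genes.

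Neighbour distances, chains, densities and medians were computed in Python 3.11.15 with numpy 2.4.6, pandas 2.3.3 and scipy 1.17.1. On a simulated list with planted chains, the numbers of members, lone summits and chains came back as planted. Flank counts in that list were checked by a separate count. Densities, medians and step lengths were not checked in this way. Named items are the largest chain, the closest pairs, the highest scores, the extremes of density and isolation and the values at the bounds. Alternatives changed the score range, distance, minimum score, windows and chromosomes. The members and lists were chosen with earlier results of these data known.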

Additional observations from a re-analysis of the deposited data

How the results depend on the processing

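No paired analysis was possible because the list pools its replicates. It also left no replicate to omit. Of 97 alternative values, 78 stayed within the 95% Wilson interval of the main share, 1 SD over chromosomes or 1.5 times the main count, 15 moved further and 4 changed sign. The SD is a wide bound for the differences. A density difference of 0.477 per 100 kb, against 1.80 in the main setting, counted as within it. So did a difference near ends of -4.47 points with neighbours under 750 bp, against -0.51. The settings without chromosomes I, VI or XI and the flank measured from the outer summits were chosen after the data were seen.

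With neighbours under 750 bp the closely packed share was 28.5%, pairs were 91.9% of chains and the median step was 531.5 bp. With neighbours under 1500 bp these were 54.4%, 75.5% and 781.5 bp, 49.4% of members were the highest of their chain, and the excess density of the 3 shortest chromosomes was 4.81 per 100 kb. A larger distance limit can only raise the closely packed share, and the cause of the other shifts was not tested. With a minimum score of 50 for every summit the share was 30.9%, chains numbered 227, pairs were 87.7% and 42.6% of members were the highest. Removing weak partners can only lower the share. It also takes away every pair with a weak partner, 110 in the main setting. In these pairs the closely packed summit was the higher by definition, so part of the other shifts is built in. The cause of the remainder was not tested. With members from a score of 100 the share was 36.9% and 64.5% were the highest, and with members under 500 the latter was 48.4%. The difference in share near ends became 1.89 points with neighbours under 1500 bp, 0.63 with the minimum of 50, 0.046 within 50 kb and 3.87 within 100 kb, and the cause was not tested.

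The lower median score and the sparser flank of closely packed summits kept their sign in the 9 and 12 alternatives run for each, though the flank difference shrank from -0.39 to -0.11 between 2 and 5 kb and to -0.19 with the minimum of 50. Depth is unknown and limits each score, and a summit not listed was not shown to be absent.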
